A study of Mus musculus with 8 samples.

Results

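The acute phase genes described here were 9 genes, Lcn2, Saa1, Saa2, Saa3, S100a8, Hp, Ptx3, Steap4 and C3, of 47643 named genes in the expression table of mouse bone marrow mesenchymal stem cells (MSCs). They were chosen by name, from the measured values of the same comparison of WT with cKO libraries that is described below, so their differences between genotypes are given as a description and carry no test. The study asked what loss of Mettl3, the catalytic subunit of the m6A methyltransferase, does to bone marrow MSCs. RNA-seq covered 2 libraries labelled wild type (WT), which the study's legend gives as Mettl3 fl/fl, and 2 libraries of Prx1-cre;Mettl3 fl/fl cells (cKO), all on C57BL/6. MeRIP-seq, which sequences RNA fragments bound by an antibody to N6-methyladenosine (m6A), covered 2 immunoprecipitates and 2 inputs of MSCs. Every sample had spent 2 days in osteogenic medium, whose additions were dexamethasone, a glucocorticoid, at 100 nM, β-glycerophosphate at 5 mM and ascorbic acid at 50 µg/ml. Prx1-Cre acts in limb bud mesenchyme, so blood-derived cells in such cultures keep the floxed gene intact. The age of the animals is not given in the sources used here, and nothing says whether replicates came from separate animals or cultures, so the spread between libraries may be technical.

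Acute phase proteins are secreted during inflammation, mostly by the liver, and many are also made by fibroblasts, fat cells and macrophages. Their genes are classic targets of IL-6 acting through STAT3, of IL-1 and TNF acting through NF-kB, and of C/EBP factors, and glucocorticoids strengthen the induction of several. Stromal cells of the marrow and other tissues are known to switch on some of them, Lcn2 and Saa3 in particular, in response to inflammatory signals.

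A library held 23978099 to 34106693 counts, and values are given as CPM, the counts of a gene per 1000000 counts of the library after TMM scaling, or as TPM, which are also scaled by gene length. Mettl3 itself was at 17.6 and 16.9 CPM in WT and at 17.5 and 16.3 CPM in the libraries labelled cKO, a log2 difference of -0.03 with an adjusted p of 0.824 (edgeR quasi-likelihood test, Benjamini-Hochberg). The targeted gene was therefore not lower in the libraries labelled cKO. Gene totals do not separate the deleted part from the rest, and Tox4 overlaps Mettl3 on the other strand in a kit that does not mark strand. Every direction below therefore rests on the labels. The chi-square statistic of the counts over its expectation was 32.6 for the WT pair and 1.82 for the cKO pair, so the cKO libraries differed little beyond sampling. Macrophage genes were abundant: the 12 macrophage markers summed to 19109 to 23368 CPM in WT and 24993 to 25121 CPM in cKO, against 4747 to 4924 and 3242 to 3289 CPM for 15 stromal markers. The cultures thus held macrophage RNA in both genotypes, and in bulk RNA fewer cells of a type and less RNA per cell cannot be told apart. Most of the stromal sum came from Col1a1, with means of 1908 CPM in WT and 1242 in cKO, and Col1a2, with 1810 and 820 CPM. The stromal sum therefore mainly follows these collagen genes. Most of the macrophage sum came from Lyz2, which was not called. It was at 10984 and 15934 CPM in WT and 15633 and 15714 CPM in cKO. Of the 15 stromal markers, 8 were called lower and 5 higher in cKO (edgeR, adjusted p under 0.05).

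Together the 9 genes summed to 1314 and 1686 CPM in the WT libraries and to 487 and 486 CPM in the cKO libraries. Of the 9, 8 had both WT libraries above both cKO libraries, and C3 overlapped. Over all 15327 genes tested, 35% had both WT libraries above both cKO libraries, and 16.8% were called lower in cKO and 13.7% higher at an adjusted p under 0.05 (edgeR). Because the genes were chosen from this contrast, nothing is read from their count against those shares. The filter on low counts removed Saa1 and Saa2, and over the other 7 the median log2 fold change was -2.43, beside -0.00 over all genes tested.

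In the table, on GRCm38, the genes were Lcn2 (ENSMUSG00000026822) at chr2:32384633-32388252 on the minus strand, Saa1 (ENSMUSG00000074115) at chr7:46740499-46742980 on the minus strand, Saa2 (ENSMUSG00000057465) at chr7:46751833-46754314 on the plus strand, Saa3 (ENSMUSG00000040026) at chr7:46711998-46715676 on the minus strand and S100a8 (ENSMUSG00000056054) at chr3:90668978-90670035 on the plus strand. The others were Hp (ENSMUSG00000031722) at chr8:109575130-109579172 on the minus strand, Ptx3 (ENSMUSG00000027832) at chr3:66219910-66225805 on the plus strand, Steap4 (ENSMUSG00000012428) at chr5:7960457-7982213 on the plus strand and C3 (ENSMUSG00000024164) at chr17:57203970-57228136 on the minus strand. Saa1, Saa2 and Saa3 lie side by side on 1 chromosome.

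**Figure D1:**
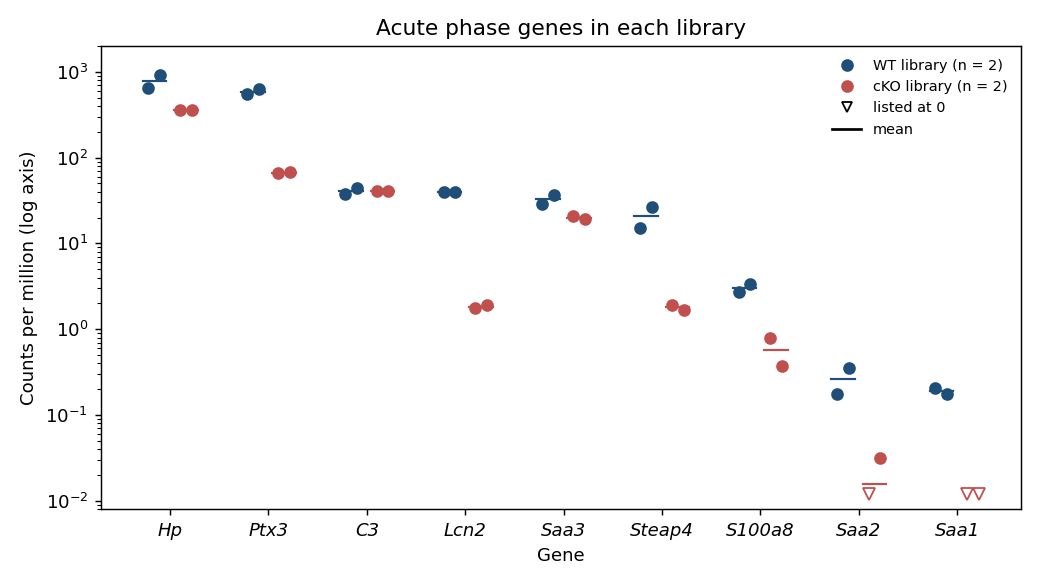
CPM (log axis) of each acute phase gene in the 2 WT and the 2 cKO libraries, with points for libraries, short lines for group means and open triangles for libraries listed at 0. WT points lie above cKO points for every gene but C3, whose libraries all sit between 37.2 and 44.0 CPM.

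Of the members that handle iron, copper or haemoglobin, Lcn2 and Steap4 had the lowest log2 fold changes of the 7, and Hp differed less. Lcn2 encodes lipocalin 2, which binds iron-loaded siderophores and so keeps iron from bacteria. It was at 40.2 and 39.4 CPM in WT and at 1.77 and 1.91 CPM in cKO (39.8 ± 0.532 against 1.84 ± 0.0985, SD, n = 2). Both cKO libraries lay 21.5-fold below WT by the fitted log2 fold change of -4.42, the furthest of the 7 genes that passed the filter. Steap4 encodes a membrane metalloreductase of iron and copper that is induced by inflammatory signals in fat and other tissues. It was at 15.0 and 26.5 CPM in WT and at 1.94 and 1.69 CPM in cKO, a log2 fold change of -3.51. The WT libraries differed 1.77-fold from each other, and the lower of them was still above both cKO libraries. Hp encodes haptoglobin, which captures free haemoglobin for uptake by macrophages. It was at 645 and 905 CPM in WT and at 356 and 355 CPM in cKO, a log2 fold change of -1.12. Hp supplied 49.1% and 53.7% of the CPM of all 9 genes in WT, and 73.1% and 73.0% in cKO.

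The long pentraxin Ptx3 recognises microbes and dying cells and acts with the complement system. It was at 545 and 631 CPM in WT and at 65.6 and 67.5 CPM in cKO (588 ± 60.9 against 66.5 ± 1.33, SD, n = 2), a fitted 8.83-fold difference. Both WT libraries were high and both cKO libraries low. Ptx3 lies inside the span of Veph1, which is on the other strand, so unstranded reads of the overlap could belong to either gene. Veph1 was listed at 0.562 and 0.601 CPM in WT and at 0.289 and 0.251 CPM in cKO, far below Ptx3. C3 encodes the central complement component. It was at 37.2 and 44.0 CPM in WT and at 40.6 and 40.6 CPM in cKO, with the cKO libraries between the WT libraries and a log2 fold change of 0.00. It was the single member whose groups overlapped.

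The serum amyloid A genes encode small apolipoproteins of acute phase HDL. Saa3, the form made outside the liver, was at 28.7 and 36.5 CPM in WT and at 20.6 and 19.2 CPM in cKO. Its log2 fold change was -0.71, the smallest decrease among the members that passed the filter. Saa1 had 7 and 5 counts in WT and was listed at 0 in both cKO libraries. Set against a floor of 3 counts over the cKO group, the WT level of Saa1 was 3.62-fold higher. That value takes the WT counts as exact, so it is no lower limit. Saa2 had 6 and 10 counts in WT and 0 and 1 in cKO, a ratio of 14.5 that rests on few counts and carries no test. The classic liver forms were thus near the detection limit in every library, and the abundant form was Saa3. The first 120 coding bases of the 3 genes, taken from GENCODE vM1, are shown because near-identical copies can exchange reads, with capitals in Saa2 and Saa3 where the base differs from Saa1.
Saa1: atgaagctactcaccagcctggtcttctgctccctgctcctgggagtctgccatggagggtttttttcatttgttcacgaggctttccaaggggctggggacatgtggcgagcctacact
Saa2: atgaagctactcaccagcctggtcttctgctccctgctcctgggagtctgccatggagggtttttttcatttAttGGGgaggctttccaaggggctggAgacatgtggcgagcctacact
Saa3: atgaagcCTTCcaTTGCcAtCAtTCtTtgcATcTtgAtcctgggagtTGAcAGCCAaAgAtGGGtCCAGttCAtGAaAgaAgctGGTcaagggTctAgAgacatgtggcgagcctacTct
Over the 369 coding bases, Saa1 and Saa2 were 95.1% identical, Saa1 and Saa3 73.2%, and Saa2 and Saa3 71.5%. Of the 50-base words of Saa1, 9.17% also occurred in Saa2, so the split of reads between Saa1 and Saa2 is uncertain. Summed, the pair had 28 counts in WT and 1 in cKO. Of the Saa3 words, 1.87% were shared with Saa1, and the other 6 members shared no 50-base word with another protein-coding gene.

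S100a8 encodes a subunit of calprotectin, a calcium and zinc binding alarmin that is abundant in neutrophils. It was at 2.72 and 3.40 CPM in WT and at 0.784 and 0.377 CPM in cKO, a log2 fold change of -2.43. These are 92 and 96 counts against 19 and 12, and the cKO libraries differed 2.08-fold from each other. Its usual partner S100a9 was listed at 0 in all 4 libraries, but the table gives S100a9 a span of 54 bases where RefSeq has 3092, so this zero is no measure of the gene. Of the neutrophil markers, Mpo, Ltf, Ngp, Retnlg and S100a9 were listed at 0 throughout, all but Ngp with shortened spans, and Elane had 1, 4, 1 and 0 counts. The 14 neutrophil markers summed to 21.6 to 22.7 CPM in WT and 15.1 to 15.9 CPM in cKO, with Mmp8 called lower at 13.3 and 16.3 against 6.11 and 5.74 CPM (adjusted p = 0.00124), Camp at 0.385 and 0.637 against 0.289 and 0.533 CPM and Csf3r at 7.48 and 4.81 against 8.21 and 9.22 CPM. Most of the sum came from Mmp8 and from Csf3r, which was above WT in cKO and not called. Cxcr2 also had a shortened span, so the sum is no full measure of neutrophil RNA. The part of neutrophil genes in the S100a8 difference was not tested. Of 8 hepatocyte markers none passed the filter, and together they were listed at 0.743 CPM at most. The table gives Apoa1, Fgb and Serpina1a shortened spans, so their values are no measure of these genes.

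Per length, the order of the 9 genes differed between the genotypes. In WT the mean TPM ran from Hp at 923 through Ptx3 at 469, Saa3 at 159, Lcn2 at 79.2 and S100a8 at 17.9 to C3 at 10.7, Steap4 at 9.19, Saa2 at 0.985 and Saa1 at 0.73. C3 and Steap4 did not differ beyond the spread of the libraries, and neither did Saa2 and Saa1. In cKO the order was Hp at 455, Saa3 at 105, Ptx3 at 59.5, C3 at 11.5, Lcn2 at 3.94, S100a8 at 3.69 and Steap4 at 0.865 TPM, with Saa2 at 0.065 and Saa1 at 0. Saa3 passed Ptx3, and C3 passed Lcn2 and S100a8. Lcn2 and S100a8 did not differ beyond their spread in cKO. Hp stood above 99% of the tested genes in WT and above 98% in cKO, whereas Lcn2 moved from above 87.9% to above 31.0%.

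Among genes with a mean of at least 10 CPM, the 5 whose centred log2 CPM over the 4 libraries lay nearest to the mean of the 7 members were Col27a1, Nfil3, Timp1, Dgat1 and Junb, of 9522 genes compared. Their Euclidean distances in log2 units were 0.00524, 0.147, 0.155, 0.181 and 0.19. Col27a1, a fibrillar collagen gene, was at 67.6 and 86.2 CPM in WT and at 17.8 and 15.8 CPM in cKO. Timp1, an inhibitor of matrix metalloproteinases that is itself an acute phase gene, was at 176 and 196 CPM in WT and at 40.9 and 39.0 CPM in cKO. With 4 libraries in 2 groups, any gene lower in cKO by a similar amount is near this profile.

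The relatives and the wider pathway were read from 7 lists of 158 distinct genes, of which 133 were tested. The lists were chosen with earlier results of these data known, so their counts are a description and no independent support. Over all genes tested, 16.8% were called lower and 13.7% higher. Across the lists, 50 genes were called lower in cKO and 26 higher (edgeR, adjusted over all genes tested). DESeq2 called 41 lower and 24 higher. With cKO replicate 1 or 2 left out the calls fell to 31 or 32 lower and 11 higher, and with WT replicate 1 or 2 left out 46 or 44 were called higher.

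**Figure D2:**
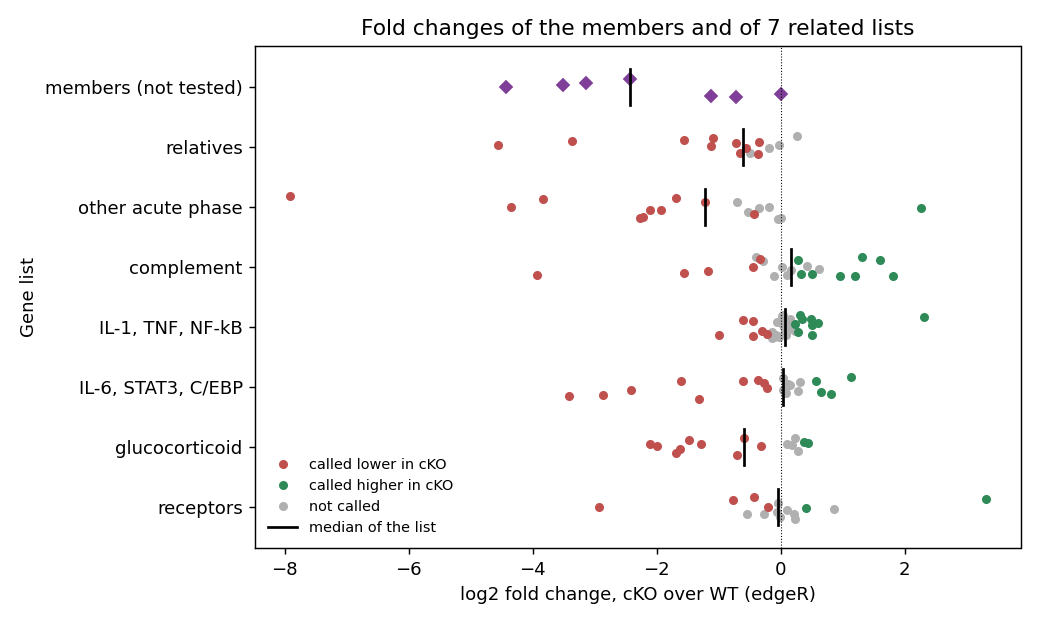
Fitted log2 fold change of cKO over WT (x axis) for the acute phase genes and the tested genes of 7 related lists (rows), coloured by edgeR call, with a black line at each median. The medians lie at -2.43 for the members, which were chosen from this contrast. They lie between -1.22 and 0.17 for the lists, which were chosen with earlier results of these data known.

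The other acute phase genes had the lowest median of these lists. Of 17 tested, 10 were called lower and 1 higher, beside 16.8% and 13.7% over all genes tested. The median log2 fold change was -1.22. Chil1, a chitinase-like lectin, was at 4.29 and 6.37 CPM in WT and had 0.0413 and 0 CPM in cKO (adjusted p = 0.000314). Serpina3m, a serine protease inhibitor, fell 20.4-fold, from 50.6 and 56.4 to 2.60 and 2.64 CPM (adjusted p = 5.05e-06). Its neighbour in the family Serpina3n, named after its values were seen, fell 14.2-fold, from 852 and 1064 to 68.8 and 66.3 CPM, and reads may be split within that gene family. The metallothioneins Mt1 and Mt2, which bind zinc and copper, fell 3.24-fold and 4.28-fold (adjusted p = 0.000139 and 1.08e-05). Hmox1, haem oxygenase, fell 1.35-fold from 824 and 772 to 591 and 594 CPM (adjusted p = 0.00346). The exception was Cp, the copper carrier ceruloplasmin, named as the 1 gene called higher: 37.3 and 34.0 CPM in WT and 172 and 170 CPM in cKO, 4.79-fold, with Hps3 overlapping on the other strand.

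Of 14 tested relatives by family, 10 were called lower, beside 16.8% over all genes tested, and 4 were not called. Their median log2 fold change was -0.60. DESeq2 called 9 lower, 6 were called lower without cKO replicate 2, and 5 were lower at an unadjusted p under 0.05 with at least a 2-fold change. S100a4 and S100a11, calcium binding relatives of S100a8, fell 1.64-fold and 1.29-fold (adjusted p = 0.0241 and 0.00568), and S100a6 was at 858 and 864 CPM in WT and 862 and 825 CPM in cKO (adjusted p = 0.738). Nptx2, a pentraxin relative of Ptx3, fell from 0.71 and 1.17 CPM to 0 and 0.0628 CPM (adjusted p = 0.00769). A2m, which shares the thioester fold with C3, fell 10.3-fold from 1.57 and 2.55 CPM (adjusted p = 0.00288).

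The complement list split in both directions around C3. Of 21 tested, 5 were called lower and 8 higher, beside 16.8% and 13.7% over all genes tested, with a median of 0.17. Without cKO replicate 1 or 2, 3 or 4 were called lower and 5 higher. Clu, a complement inhibitor and chaperone, fell 15.1-fold from 135 and 166 to 9.66 and 10.3 CPM (adjusted p = 1.08e-05). The C1q chains, made by macrophages, rose 1.42-fold for C1qa, 1.22-fold for C1qb and 1.25-fold for C1qc (adjusted p = 0.00317, 0.0108 and 0.0164). Of the 12 macrophage markers, 3 were called higher, Ptprc and the C1qa and C1qb just given, and 9 were not called. Lyz2 was at 10984 and 15934 CPM in WT and 15633 and 15714 CPM in cKO (adjusted p = 0.342). Mrc1, named after its values were seen, was at 998 and 629 against 1229 and 1211 CPM (adjusted p = 0.0646), and Ptprc, the leukocyte marker CD45, rose 1.34-fold (adjusted p = 0.00333). Their part in the C1q values was not tested.

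Upstream of the members, 3 IL-6 family cytokine genes fell and 1 rose. Of 21 tested genes of the IL-6, STAT3 and C/EBP list, 9 were called lower and 4 higher, with a median of 0.04. The shares over all genes tested were 16.8% and 13.7%. The excess of lower calls rested on the libraries used: it was 4 or 5 lower and 3 higher without cKO replicate 1 or 2, and 9 lower with 9 or 8 higher without WT replicate 1 or 2. Il6 fell 10.6-fold, from 8.22 and 10.1 to 0.867 and 0.847 CPM (adjusted p = 0.000125). Lif, an IL-6 family cytokine, fell 7.3-fold from 15.4 and 12.8 to 1.57 and 2.23 CPM (adjusted p = 0.000208). Il11 fell 5.33-fold and Osm rose 2.19-fold, both named after their values were seen (adjusted p = 0.00871 and 0.0288). Stat3, the transcription factor, fell 1.16-fold (adjusted p = 0.0384), Cebpa rose 1.57-fold (adjusted p = 0.000719), and Cebpb was at 77.9 and 119 CPM in WT and 117 and 122 CPM in cKO (adjusted p = 0.277). Of 35 tested genes of the IL-1, TNF and NF-kB list, 6 were called lower and 9 higher, with a median of 0.08, against backgrounds of 16.8% and 13.7%. Bcl3, a nuclear NF-kB cofactor, fell 1.98-fold and Rel, an NF-kB subunit, rose 1.53-fold (adjusted p = 0.000767 and 0.00495). Nfkbia, the inhibitor that NF-kB itself induces, fell 1.16-fold (adjusted p = 0.0363). Tnfrsf1a, a TNF receptor, was at 239.7 and 254 CPM in WT and 256 and 251 CPM in cKO, and the adaptor Myd88 at 82.7 and 101 against 82.7 and 84.8 CPM (adjusted p = 0.67 and 0.356). DESeq2 called 3 of that list lower. Without cKO replicate 1 or 2, 1 was called lower and 2 higher, and without WT replicate 1 or 2, 8 or 6 lower and 16 or 14 higher.

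Glucocorticoid genes were included because dexamethasone was present in every culture. Of 15 tested, 9 were called lower and 2 higher, beside 16.8% and 13.7% over all genes tested, with a median of -0.59. Mt1 and Mt2 are also on the acute phase list. Without either cKO replicate 8 were called lower and 0 higher, and without WT replicate 1 or 2, 9 lower and 6 or 5 higher. Hsd11b1, which regenerates active glucocorticoid, fell 3.99-fold from 22.3 and 28.8 to 6.64 and 6.15 CPM (adjusted p = 0.000296). Fkbp5, a widely used glucocorticoid target, was at 700.2 and 599 CPM in WT and at 682 and 712 CPM in cKO (adjusted p = 0.41). Over all genes tested, 16.8% were called lower and 13.7% higher. Of 15 tested receptors and partners of the member proteins, 4 were called lower and 2 higher. These became 2 and 0 without either cKO replicate, and 6 and 5 without either WT replicate. Tnfaip6, which binds Ptx3 in the hyaluronan matrix, fell 7.57-fold from 10.0 and 11.3 to 1.65 and 1.19 CPM (adjusted p = 0.000185). Lrp2, a lipocalin receptor, was at 0.0296 and 0.106 CPM in WT and 0.702 and 0.659 CPM in cKO (adjusted p = 0.0103), and Scarb1, a receptor of Saa, fell 1.15-fold (adjusted p = 0.0381). Itgb2, a subunit of receptors for C3 fragments, rose 1.33-fold (adjusted p = 0.00959), and C3ar1, the C3a receptor, was at 468 and 435 against 484 and 492 CPM (adjusted p = 0.224).

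The markers of other cell types moved as follows, beside 16.8% called lower and 13.7% higher over all genes tested. Of 15 stromal markers, 8 were called lower and 5 higher. Lower were Nt5e 5.09-fold, Alpl 2.49-fold, Col1a2 2.21-fold, Eng 1.63-fold, Cxcl12 1.57-fold, Col1a1 1.54-fold, Runx2 1.39-fold and Ly6a 1.23-fold. Thy1 rose from 3.93 and 1.91 to 74.7 and 69.4 CPM. Also higher were Twist1 2.72-fold, Prrx1 2.06-fold, Pdgfrb 1.63-fold and Pdgfra 1.18-fold. Alpl, Eng, Cxcl12, Runx2, Twist1, Prrx1, Pdgfrb and Pdgfra were named after their values were seen. Of 12 adipocyte markers, 3 were called lower and 6 higher, with Fabp4 2.12-fold and Lpl 1.86-fold higher and Cidec 5.80-fold and Acvr1c 6.79-fold lower. Their part in the differences of the acute phase genes was not tested.

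The deposited m6A list of 10160 peaks, placed on mm9 by their summits, held a peak in 2 of the 9 genes, Hp and Ptx3. Among 14118 tested genes found in GENCODE vM1, 42% had a summit within the gene. The share with a peak was 14.8% of tested genes with a transcript under 1000 nt, 27.4% from 1000 to under 2000 nt and 49.6% from 2000 nt. Lcn2, Saa1, Saa2, Saa3 and S100a8 fall in the first class and had none, Hp and Ptx3 fall in the second, and Steap4 and C3, in the third, had none. Both peaks had their summit in the last exon, in coding sequence. Of the 539 nt of the Hp peak 502 were coding and the rest lay past the stop codon, while all 225 nt of the Ptx3 peak were coding. The Hp peak, chr8:112099134-112099672, had its summit 103 nt before the stop codon and a pileup of 122. Its fold enrichment of 4.31 was above 56% of the peaks and its −log10 q of 35.2 above 93.4%. The Ptx3 peak, chr3:66028713-66028937, had its summit 265 nt before the stop codon and a pileup of 55. Its fold enrichment of 2.43 was above 9.96% of the peaks and its −log10 q of 6.0 above 12.1%. With a −log10 q of at least 10 required, Hp alone kept its peak. The list has no replicates and does not separate genotypes, so peaks were not compared between WT and cKO here.

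**Figure D3:**
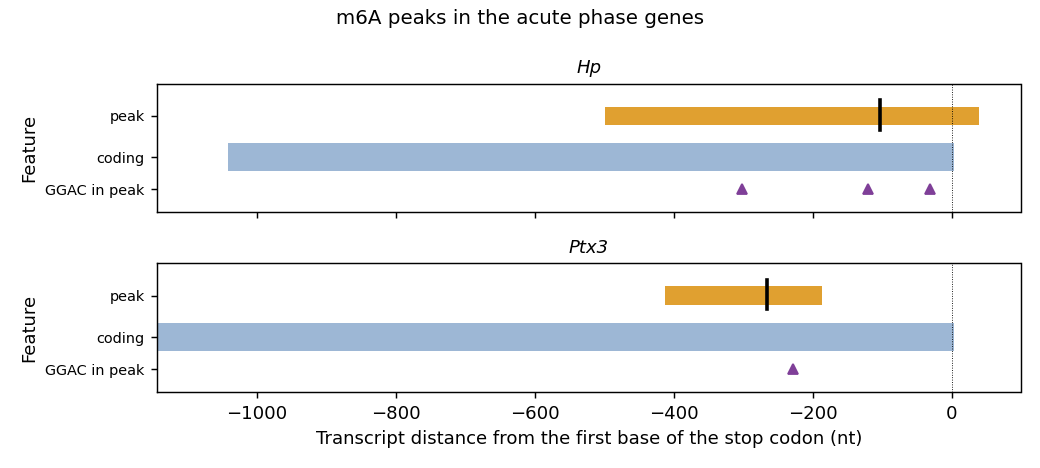
Position of the m6A peak (bar), its summit (black line), the coding sequence and the GGAC motifs inside the peak (triangles) in Hp and Ptx3, as transcript distance in nt from the first base of the stop codon. The summits lie 103 nt (Hp) and 265 nt (Ptx3) before the stop codon.

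The coding sequence under the peaks is shown on the transcript strand because it carries GGAC, the core in which m6A is most often found, in capitals. The Hp stretch is chr8:112099171-112099410 on the minus strand, and the Ptx3 stretch chr3:66028713-66028937 on the plus strand, both mm9.
Hp: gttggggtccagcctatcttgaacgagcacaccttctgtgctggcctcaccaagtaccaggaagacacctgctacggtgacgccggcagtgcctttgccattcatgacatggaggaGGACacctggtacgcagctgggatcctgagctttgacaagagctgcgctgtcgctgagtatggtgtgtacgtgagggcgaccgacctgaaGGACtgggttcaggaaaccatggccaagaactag
Ptx3: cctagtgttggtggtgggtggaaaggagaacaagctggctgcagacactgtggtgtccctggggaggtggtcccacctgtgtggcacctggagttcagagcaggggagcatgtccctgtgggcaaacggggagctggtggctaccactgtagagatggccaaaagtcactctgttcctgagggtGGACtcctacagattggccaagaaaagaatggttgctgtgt
The Hp peak held 3 GGAC, of which 2 fall in the stretch shown, with the nearest 18 nt from the summit. The Ptx3 peak held 1, 37 nt from the summit. Hp and Ptx3 had 5.96 and 5.20 GGAC per kb of transcript. Without a peak, Saa1 had 6.61 and Lcn2 5.46, but Saa1 was near the detection limit. The median of tested genes was 4.39 per kb under 1000 nt and 4.62 from 1000 to under 2000 nt.

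The promoters of 4 members are shown for the motifs of the factors named above, from RefSeq on GRCm38.p6, 250 bases up to the start site, with matches in capitals. Steap4 and Ptx3 were far lower in cKO, Saa3 a little lower, and C3 overlapped. The Steap4 window is chr5:7960222-7960471, plus strand, the Ptx3 window chr3:66219637-66219886, plus strand, the Saa3 window chr7:46715677-46715926, minus strand and the C3 window chr17:57228137-57228386, minus strand.
Steap4: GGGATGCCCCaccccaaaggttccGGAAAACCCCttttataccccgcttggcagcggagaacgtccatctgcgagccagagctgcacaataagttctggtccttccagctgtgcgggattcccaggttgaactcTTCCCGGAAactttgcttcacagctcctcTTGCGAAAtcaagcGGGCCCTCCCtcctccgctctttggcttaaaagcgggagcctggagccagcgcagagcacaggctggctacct
Ptx3: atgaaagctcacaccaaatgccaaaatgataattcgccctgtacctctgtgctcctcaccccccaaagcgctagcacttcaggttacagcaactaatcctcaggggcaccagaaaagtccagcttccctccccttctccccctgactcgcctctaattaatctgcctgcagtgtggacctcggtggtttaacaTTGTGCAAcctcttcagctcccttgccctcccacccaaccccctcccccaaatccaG
Saa3: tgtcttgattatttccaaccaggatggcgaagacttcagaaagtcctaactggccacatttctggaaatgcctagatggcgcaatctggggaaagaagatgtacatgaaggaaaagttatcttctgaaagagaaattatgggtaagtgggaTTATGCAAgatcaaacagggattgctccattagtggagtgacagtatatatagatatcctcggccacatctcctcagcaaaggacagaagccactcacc
C3: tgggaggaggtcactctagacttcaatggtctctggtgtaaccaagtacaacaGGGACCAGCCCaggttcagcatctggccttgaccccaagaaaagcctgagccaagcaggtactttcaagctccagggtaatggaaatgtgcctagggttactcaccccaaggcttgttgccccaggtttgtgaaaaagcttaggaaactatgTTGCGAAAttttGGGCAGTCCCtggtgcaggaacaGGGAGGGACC
The motifs, searched on both strands from 250 bases before to 50 after the start, were GGGNNNNNCC for NF-kB, TTGCNNAA for C/EBP, TTCNNNGAA for STAT, GNACANNNTGTNC for the glucocorticoid receptor and TGANTCA for AP-1. Hp had no promoter in the reference used. Of the other 8 members, 7 held the C/EBP motif, which 10.8% of all 32851 promoters held, with no limit to the genes tested. Saa1 and Saa2 are near-identical copies that matched the same letters, with C/EBP matches from -182 and -183, so they are not separate cases. S100a8 was the member without it. The NF-kB motif was in 6 of the 8 and in 50.8% of all promoters. In Ptx3 the final capital is the first base of an NF-kB match that crosses the start site. The STAT motif was in Steap4 and in 8.3% of all promoters, the AP-1 motif in 0 members and 7.81%, and the glucocorticoid receptor motif in 0 members and 0.475%. C3 held both the C/EBP and the NF-kB letters. Whether motifs go with the differences between genotypes was not tested. A match of letters is a description and no measure of binding.

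**Figure D4:**
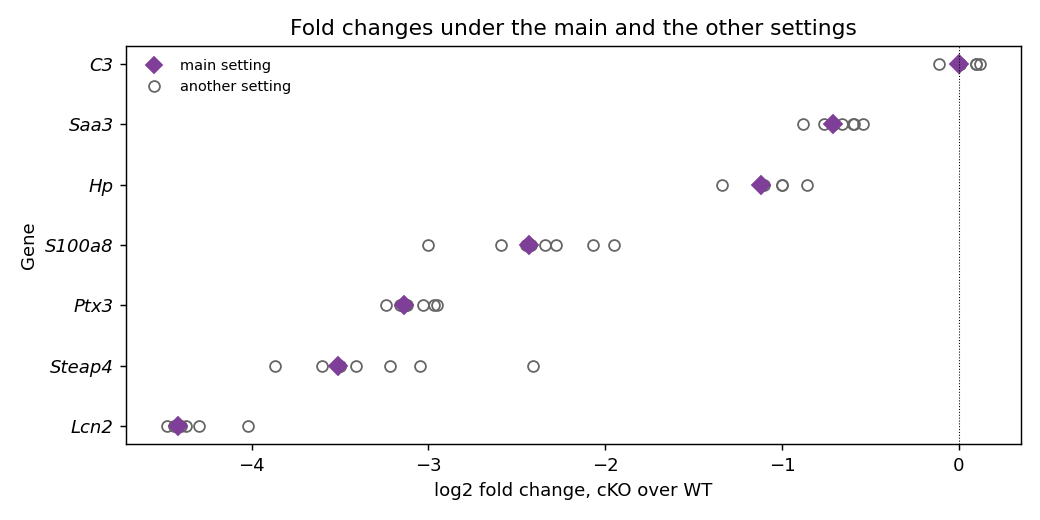
Fitted log2 fold change of cKO over WT (x axis) for the 7 acute phase genes that passed the filter (rows), under the main setting (diamond) and 11 other settings (circles). The 6 genes other than C3 stay below 0 throughout, while C3 ranges from -0.11 to 0.12.

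Across the settings, the log2 fold change ranged from -4.48 to -4.02 for Lcn2, from -3.87 to -2.41 for Steap4, from -3.24 to -2.95 for Ptx3, from -3.00 to -1.95 for S100a8, from -1.34 to -0.86 for Hp and from -0.88 to -0.54 for Saa3.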

How the data were processed

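RNA-seq of 4 libraries (2 WT, 2 cKO) and 1 m6A peak list from 4 MeRIP samples were used. Genotypes came from the sample labels. The authors mapped RNA-seq reads with HISAT2 2.0.4, and the submitters' processing notes also name TopHat, MACS2, mm10 and mm9. The expression table deposited by the authors gives unnormalized estimated counts and a column headed FPKM that sums to 1000000 per library, so these deposited values are TPM. How reads were counted is not given in the sources used here. The deposited peak list holds pileup signal, fold enrichment (a ratio) and −log10 q-values. Whether samples were pooled is not given in the sources used here.

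Of 47732 entries, 89 had no gene name, held 0.11% to 0.125% of a library's counts and were left out. After rounding, filterByExpr kept 15327 genes, TMM factors were applied, and the two-sided quasi-likelihood test of edgeR 4.0.16 was run without a block, with Benjamini-Hochberg adjustment over those genes. The design had planned for counts. An exact permutation test of 2 against 2 cannot go below p = 0.333, so none was used. In a test on simulated data the fit was checked against known changes. Alternatives were the replicate block, no filter, median-of-ratios scaling, DESeq2 1.42.0, limma 3.58.1 on log2(TPM + 0.1) and log2(TPM + 1), each library left out, unadjusted p under 0.05 with 2-fold, Saa1 and Saa2 summed and, chosen after seeing the data, the cKO libraries summed. The members and lists were chosen with earlier results of these data known. Named genes are all members, the 3 genes of each list with the highest mean TPM, the 2 called genes with the largest fold change and at least 10 counts in every library of a group, and the 5 nearest in pattern. Of these, 1 gene is not reported here. The floor stands for counting error in the cKO libraries only and leaves out that of WT.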

Additional observations from a re-analysis of the deposited data

How the results depend on the processing

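Replicate numbers are shared by WT and cKO, but nothing says what they mark: over 15327 genes, the correlation of WT replicate 1 minus 2 with cKO replicate 1 minus 2 was 0.0264. With the number as a replicate block, 47 list genes were called lower and 29 higher, against 50 and 26 without it, and the members' median log2 fold change was -2.44. Leaving out each library in turn gave 31 to 60 list genes called lower, 11 to 46 called higher and a median for the members of -3.00 to -1.95. The counts also changed with log2(TPM + 1), 33 lower, with the cKO libraries summed, 33 lower and 14 higher, and with an unadjusted p under 0.05 and at least 2-fold, 26 lower and 8 higher. The cause was not tested. The fold change of C3 was -0.11 without WT replicate 1 and 0.12 without WT replicate 2. Requiring a −log10 q of at least 10 left 1 member with a peak. Over all genes, 2577 were called lower and 2100 higher, against 1143 and 724 without cKO replicate 2 and 4495 and 4255 without WT replicate 1. The TPM scale with a pseudocount of 0.1 moved the median of all genes to 0.10. Depth limits Saa1, Saa2 and S100a8, and with 2 libraries a group the spread is known poorly.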

Other observations

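The genes beside the members on the chromosome were set against them, within 100 kb on either side. Around Lcn2, 4 of 8 tested neighbours were called lower in cKO and 4 were not called, where 16.8% of all genes tested were called lower (edgeR). Slc25a25 had a log2 fold change of -2.32 and Dnm1 of -1.86. Around Hp and around Saa3, the 4 tested neighbours were not called, with median log2 fold changes of -0.0465 and -0.012. Around Steap4, Adam22 was called higher, with a log2 fold change of 0.98. Ldha, within reach of both Saa1 and Saa2, and S100a4, near S100a8, were called lower, with log2 fold changes of -0.81 and -0.72. Near C3, Vav1 was called higher and Gpr108 lower, at 0.34 and -0.24, and Veph1, the 1 tested neighbour of Ptx3, was not called at -1.10.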
